A study of Mus musculus with 3 samples.

Results

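The 9 genes described here belong to the phosphoinositide 3-kinase (PI3K) pathway: the catalytic subunits Pik3ca and Pik3cd, the regulatory subunit Pik3r1, the kinases Akt1 and Akt2, and the inhibitors Pik3ip1, Inpp5d, Phlpp1 and Phlpp2. They were taken by symbol from the GENCODE M21 gene tables and are 9 of 55536 annotated genes, each found on 1 identifier. Polyadenylated RNA had been sequenced from mouse regulatory T cells (Tregs) that had been through inflammation, taken at 12 weeks of age as primary cells derived from activated Tregs. There were 3 libraries, named as technical replicates 1 to 3 of 1 biosample from 1 donor, and therefore 1 group. The strain, genotype, inflammatory treatment and sorting gate are not given in the sources used here, and the sex was not collected. With no second condition, the comparisons that the design allows are between genes within the libraries and between the libraries.

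PI3K adds a phosphate to a membrane lipid to make PIP3, which brings the kinase Akt to the membrane and lets it be activated. Inhibitors act at successive steps. Pik3ip1 is a membrane protein that restrains the PI3K enzyme, Inpp5d (SHIP1) removes a phosphate from PIP3, and Phlpp1 and Phlpp2 remove an activating phosphate from Akt itself. In Tregs the pathway is known for being held low, because active Akt keeps the transcription factor Foxo1 out of the nucleus, and Foxo1 supports Treg function.

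Total expected counts (model-based read numbers, not always whole) were 31665170 to 37810591 per library. The 5 Treg markers Foxp3, Il2ra, Ctla4, Cd3e and Cd4 were all detected (TPM of at least 1 in every library) and summed to 2166, 2118 and 2088 TPM in libraries 1 to 3. Of 5 B cell markers 4 were detected, with sums of 55.6, 61.0 and 53.8 TPM and Pax5 at 0.02 to 0.67. Of 5 myeloid markers 1 was detected, with sums of 2.45 to 4.45 TPM. Salivary gland transcripts stood apart in library 3, where 4 genes summed to 53458 TPM against 4.36 and 10.8. TPM (transcript abundance per length, scaled to 1 fixed sum) shares its total among all genes, and the median log2 ratio over detected genes was 0.10 for library 1 over 3 and for library 2 over 3. Errors below are SDs over these 3 libraries. The labels name the libraries technical replicates of 1 donor, so p-values reflect differences among libraries and do not measure variation among mice. In bulk RNA, fewer cells that express a gene and less RNA per cell cannot be told apart.

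The most abundant of the 9 genes was Pik3cd, and the least abundant was Phlpp2. In order of mean TPM they were Pik3cd, Inpp5d, Akt1, Pik3ip1, Pik3r1, Akt2, Pik3ca, Phlpp1 and Phlpp2. The detected members numbered 8 of 9, and 4 of them exceeded 100 TPM. For comparison, 10494 of 22028 protein-coding genes (47.6%) were detected. The members' median was 81.2 TPM, against 1.04 TPM over all protein-coding genes.

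**Figure D1:**
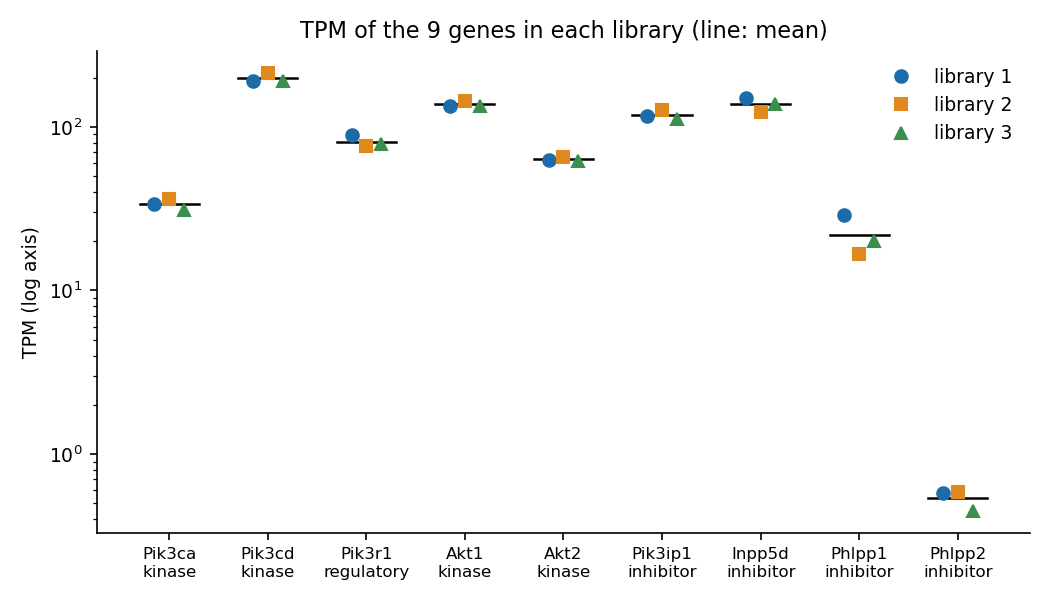
TPM (log axis) of the 9 genes in each of the 3 libraries, with a line at the mean, kinases to the left and inhibitors to the right. Pik3cd sits highest, at 189.5 to 214, Phlpp2 lowest, at 0.45 to 0.59, and the spread between libraries is widest for Phlpp1.

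Among the catalytic subunits, which carry the lipid kinase activity, the leukocyte form exceeded the broadly expressed form. Pik3cd (p110 delta; ENSMUSG00000039936.18, chromosome 4, 149649168 to 149702571, minus strand, mm10) had 191, 214 and 189.5 TPM in libraries 1 to 3, from 16968, 16573 and 18257 expected counts. Its mean of 198 ± 14.04 TPM lay above 93.2% of the 12883 detected genes. Pik3ca (p110 alpha; ENSMUSG00000027665.13, chromosome 3, 32397671 to 32468486, plus strand) had 33.9, 36.3 and 31.2 TPM, from 3566, 3197 and 3608 counts, a mean of 33.8 ± 2.54 above 58.7% of detected genes. The libraries of the 2 genes did not overlap, and Pik3cd stood 5.86-fold higher, with a difference in log2(TPM + 1) of 2.52 ± 0.05. Both genes were highest in library 2, and lowest in library 3 in TPM but in library 1 in depth-scaled counts.

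Within the class I catalytic subunits as a family, Pik3cd took 75.8 ± 0.858% of the summed TPM. Pik3ca took 12.9 ± 0.365%. The remainder came from Pik3cg, the subunit that answers to G protein-coupled receptors, with 8.75 ± 0.649%, and from Pik3cb with 2.51 ± 0.189%. The share of Pik3cd ran from 75.02 to 76.7% over the libraries. B cells also express Pik3cd and Inpp5d, and the part of the B cell transcripts given above in their levels was not tested.

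Pik3r1 encodes the regulatory subunit that stabilises the catalytic subunit and docks it to phosphorylated receptors. It had 88.9, 76.0 and 78.8 TPM from 5906, 5225 and 6325 counts (mean 81.2 ± 6.80 TPM), with library 1 above the others. It was the most abundant class I regulatory gene, with 53.9 ± 5.56% of the family's TPM. Pik3r5, which partners Pik3cg, took 26.0 ± 3.23%, Pik3r2 16.1 ± 0.694%, Pik3r3 3.70 ± 1.72% and Pik3r6 0.239 ± 0.210%. The sum of Pik3r1, Pik3r2 and Pik3r3 was 0.468 ± 0.0379 of the sum of the catalytic subunits they pair with, Pik3ca, Pik3cb and Pik3cd. These values count all transcripts, and incompletely spliced (retained-intron) ones took 39.9 ± 1.17% of the TPM of Pik3r1. Family shares over protein-coding transcripts alone were not computed.

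Pik3r1 (ENSMUSG00000041417.15, chromosome 13, 101680563 to 101768217, minus strand) is transcribed from separate starts, and the transcripts from them encode proteins of different length. Pik3r1-202, from the upstream start, encodes 724 residues (p85 alpha), and Pik3r1-201, from a start within the gene, encodes 454 residues (p55 alpha). Both were present in every library. Pik3r1-202 took 27.2, 32.6 and 31.6% of the gene's TPM and 65.2 ± 1.54% of its expected counts, while Pik3r1-201 took 18.7, 20.3 and 16.98% of TPM and 16.3 ± 1.63% of counts. The 150 bases before each start are shown because they are the promoters of these 2 proteins and differ in composition. They are on the minus strand of GRCm38.p6 (mm10), from RefSeq, at chr13:101768218-101768367 for the upstream start and at chr13:101692631-101692780 for the downstream start, written 5′ to 3′. Capitals mark GC boxes (GGGCGG) and TATA boxes (TATAAA, here as its reverse complement TTTATA).
Pik3r1-202: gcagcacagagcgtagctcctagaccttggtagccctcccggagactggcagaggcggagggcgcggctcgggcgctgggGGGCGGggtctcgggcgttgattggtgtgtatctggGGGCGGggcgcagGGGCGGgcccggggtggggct
Pik3r1-201: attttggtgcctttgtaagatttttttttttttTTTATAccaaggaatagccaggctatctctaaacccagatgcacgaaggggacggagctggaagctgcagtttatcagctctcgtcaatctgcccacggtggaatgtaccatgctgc

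In windows of 300 bases (250 before to 50 after the start), the upstream promoter was 75.7% G and C with 34 CG dinucleotides and 4 GC boxes. The downstream promoter was 43.7% G and C with 6 CG dinucleotides, no GC box and 1 TATA box match. The median over all 32851 RefSeq promoters was 52.7% G and C. Searched on both strands, GGGCGG was in 35.7% of those promoters and TATAAA in 13.6%. RefSeq windows were found for 9 of 9 members, 16 windows in all, and GGGCGG was in 8 of them, from 7 genes. The forkhead motif GTAAACA, which Foxo factors can bind, was in 3.65% of all promoters and in 1 of the 16 windows, at the Akt1-208 start. The Ets motif CCGGAA (14.9% of all) was in 1 window, of Pik3ca, and the Runx motif TGTGGT (16.8% of all) in 1, of Akt2. These are matches of letters in a window and show no binding.

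Akt1 and Akt2 encode the kinases that PIP3 recruits. Akt1 (ENSMUSG00000001729.14, chromosome 12, 112653821 to 112674884, minus strand) had 133, 143 and 135 TPM, from 7141, 7040 and 8062 counts, a mean of 137 ± 5.38 above 89.5% of detected genes. Akt2 (ENSMUSG00000004056.15, chromosome 7, 27591552 to 27640826, plus strand), the form best known from insulin signalling, had 62.6, 65.6 and 62.1 TPM, from 3894, 3581 and 4223 counts, a mean of 63.4 ± 1.93. The groups of library values did not overlap, and Akt1 stood 2.16-fold above Akt2, a difference of 1.10 ± 0.02 in log2(TPM + 1). This was the pair with the smallest spread between libraries of all 36 pairs of members. Of their summed TPM, Akt1 took 68.4 ± 0.277% and Akt2 31.6 ± 0.277%.

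The inhibitors that act on PI3K and its product had mean levels within the range of the kinases, and those that act on Akt had means below it. Pik3ip1 (ENSMUSG00000034614.14, chromosome 11, 3330401 to 3342971, plus strand) had 117, 126 and 112 TPM, from 5259, 4909 and 5222 counts, a mean of 118 ± 7.22. It stood at 0.458, 0.446 and 0.455 of the summed TPM of the 4 class I catalytic subunits, the enzyme it restrains, a ratio of 0.453 ± 0.00621. Inpp5d (ENSMUSG00000026288.14, chromosome 1, 87620312 to 87720507, plus strand) had 150.3, 124 and 139 TPM, from 11499, 9019 and 11763 counts, a mean of 138 ± 13.3. Library 2, which was highest for Pik3cd, Akt1 and Pik3ip1, was lowest for Inpp5d.

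Inpp5d stood above its relatives Inppl1 and Inpp5k in every library, but not above Inpp4b, the phosphatase of the next lipid in the chain. Inppl1 (SHIP2) took 7.22 ± 1.21% of the summed TPM of Inpp5d and Inppl1. Inpp5k, another phosphatase that can act on PIP3, had 113, 109.6 and 105 TPM. Inpp4b, which acts on the lipid that Inpp5d makes, had 460, 472 and 413 TPM, a mean of 448 ± 31.1, above 97.7% of detected genes. The ratio of Inpp4b to Inpp5d was 3.06, 3.81 and 2.98 in libraries 1 to 3, a mean of 3.28 ± 0.461.

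Phlpp1 and Phlpp2, the phosphatases of Akt, were the lowest of the 9 genes in TPM. Phlpp1 (ENSMUSG00000044340.7, chromosome 1, 106171752 to 106394250, plus strand) had 29.1, 16.8 and 20.0 TPM, from 3899, 1984 and 2830 counts, a mean of 21.9 ± 6.38 above 47.7% of detected genes. Phlpp2 (ENSMUSG00000031732.12, chromosome 8, 109868542 to 109944671, plus strand) had 0.58, 0.59 and 0.45 TPM, from 54, 31 and 40 counts, and was below 1 TPM in every library. Phlpp1 took 97.5 ± 0.770% of the pair's TPM and stood 40.6-fold higher, a difference of 3.86 ± 0.38 in log2(TPM + 1). The 2 phosphatases together had 0.151, 0.0831 and 0.104 of the summed TPM of Akt1 and Akt2, highest in library 1 and lowest in library 2.

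Each of the 4 inhibitors was set against each of the 4 kinase genes (Pik3ca, Pik3cd, Akt1 and Akt2). The call "apart" required 3 things of a pair: the same sign in each library, library ranges clear of each other, and bounds on TPM, as given by the authors, that were separate within each library. Of the 16 pairs, 14 were apart, 10 with the kinase higher and 4 with the inhibitor higher. The 4 were Pik3ip1 and Inpp5d over Pik3ca and over Akt2. Pik3ip1 minus Pik3cd was -0.71, -0.76 and -0.75 in log2(TPM + 1), and Inpp5d minus Pik3cd was -0.34, -0.79 and -0.45. Against Akt1, Pik3ip1 was lower by a small margin, with a difference of -0.21 ± 0.04, and Phlpp1 by a wide one, with -2.63 ± 0.44. In TPM over all transcripts, all 8 pairs of Phlpp1 or Phlpp2 with a kinase had the kinase higher in every library, and 7 were apart. The exception was Phlpp1 and Pik3ca, whose bounds overlapped in library 1, with differences of -0.22, -1.07 and -0.62. Leaving out library 1 made this pair apart too. Over protein-coding transcripts alone, the mean of Pik3ca minus Phlpp1 fell from 0.64 to 0.14, and Phlpp1 was the higher gene in library 1.

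**Figure D2:**
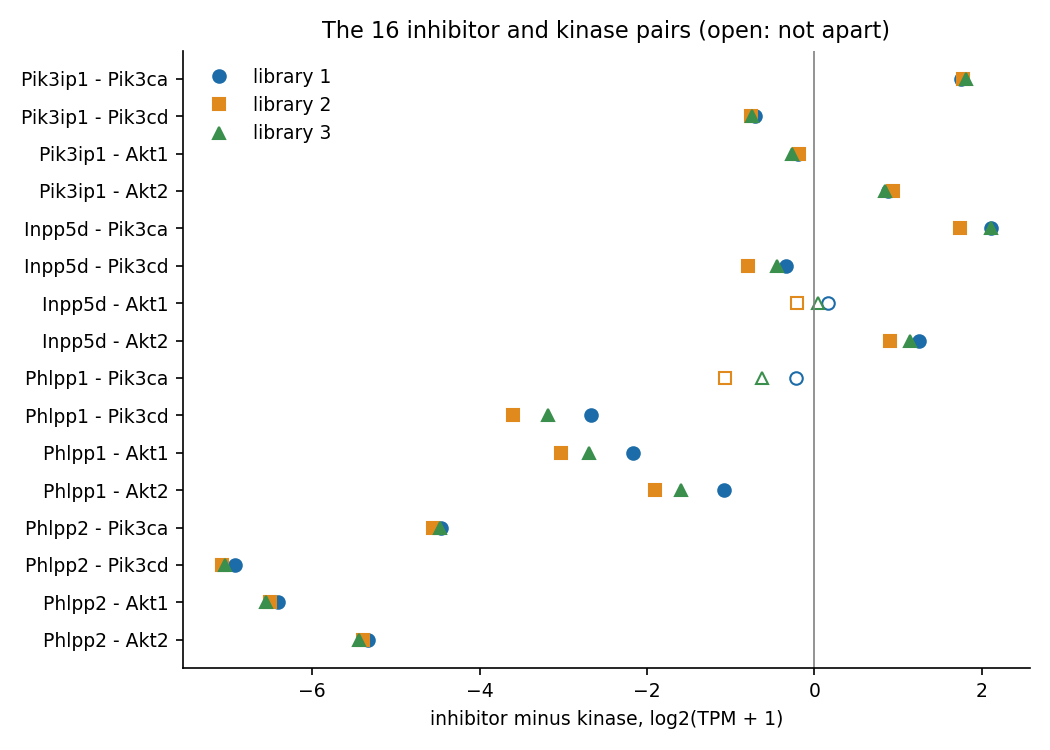
Inhibitor minus kinase in log2(TPM + 1) for the 16 pairs, 1 point per library, open where the pair was not apart. Pairs with Pik3ip1 or Inpp5d fall on both sides of 0, while pairs with Phlpp1 or Phlpp2 all lie below 0, down to -7.08 for Phlpp2 minus Pik3cd in library 2.

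The mean of the inhibitors minus the mean of the kinases was -1.52, -1.86 and -1.69 in libraries 1 to 3 (-1.69 ± 0.17 in log2(TPM + 1)). Without Phlpp2 it was -0.10, -0.51 and -0.30, so most of the distance came from that 1 gene. Over all 36 pairs of members, 33 were apart and 34 had 1 sign in all libraries. For each of those 34, a two-sided exact permutation test that flips signs returned p = 0.25, the smallest value that 3 libraries allow, and 0.265 after Benjamini-Hochberg adjustment over the 36, so no pair could pass 0.05. Of the 8 pairs of neighbours in the order, 6 were apart. The 2 that were not were Inpp5d with Akt1, whose difference was 0.17, -0.21 and 0.04 (exact p = 1), and Pik3ca with Phlpp1. Inpp5d and Pik3ip1, which are not neighbours, were also not apart, with 0.36, -0.03 and 0.30 (exact p = 0.5, adjusted 0.514).

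Some of these orders depended on which gene table was read. The second deposited gene tables, counted against annotation M4, level off at high expression, and they held a median of 43.3% of a gene's M21 count. For the members this share ran from 16.3% for Akt2, 23.5% for Pik3ip1 and 29.1% for Pik3cd to 57.6% for Pik3ca, 70.3% for Phlpp1 and 72% for Phlpp2. In M4 counts per kilobase, Akt2 minus Pik3ca was -0.95, -0.85 and -0.87 on the log2 scale, against 0.89 ± 0.07 in TPM, so this order turned around. Pik3ca minus Phlpp1 had a mean of 0.34 there, so Phlpp1 stood above the kinase gene Akt2, also the reverse of TPM. Pik3cd minus Inpp5d was -0.12, 0.06 and -0.10, against 0.53 ± 0.23 in TPM, so these genes had no order there. Pik3cd over Pik3ca, Akt1 over Akt2 and Phlpp1 over Phlpp2 kept their direction under every alternative tried, but not their size. In M4 counts per kilobase, Pik3cd minus Pik3ca was 1.54 (2.52 in TPM) and Akt1 minus Akt2 1.95 (1.10 in TPM). Phlpp1 minus Phlpp2, 3.86 in TPM, was 5.07 with a pseudocount of 0.1 and 5.22 without length correction.

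The members' reads fell on transcripts of unequal kind. Akt1-201 (480 residues) took 91.7 ± 2.63% of the TPM of Akt1 and Phlpp1-201 (1687 residues) took 97.2 ± 2.02% of that of Phlpp1. Akt2-201 took 72.0 ± 1.93% and Akt2-214 15.1 ± 1.12%, and both encode 481 residues. Pik3ip1-201 (264 residues) took 63.2 ± 3.54%. Pik3cd was divided among Pik3cd-214 (1047 residues, 37.0 ± 1.90%), Pik3cd-206 (1040 residues, 21.7 ± 2.05%), Pik3cd-201 (1045 residues, 18.6 ± 1.96%) and the noncoding Pik3cd-211 (10.2 ± 0.741%). Inpp5d was led by Inpp5d-210 (1191 residues, 44.9 ± 0.470%) and Inpp5d-201 (1190 residues, 18.3 ± 3.87%). The shares are model estimates from reads that transcripts of a gene have in common.

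Retained-intron transcripts, which are spliced incompletely and make no full protein, were a large part of some members. In Pik3r1 they took 40.6, 40.5 and 38.5% of TPM, a mean of 39.9 ± 1.17%, led by Pik3r1-203 with 20.2 ± 2.81% and Pik3r1-206 with 16.6 ± 3.48%. In Pik3ca, 1 retained-intron transcript of 440 bases, Pik3ca-204, took 32.0 ± 2.31%, beside 65.4 ± 2.35% for Pik3ca-203, which encodes the whole protein of 1068 residues. Inpp5d-203, of 364 bases, took 14.7 ± 2.64%, and Pik3ip1-210 10.1 ± 1.79%. Over the 8 members that have such transcripts the median was 15.4%, against 12.8% over 6429 detected protein-coding genes. These shares were smaller in expected counts, which are not divided by length: 16.4 ± 0.991% for Pik3r1, 2.66 ± 0.278% for Pik3ca and 1.30 ± 0.282% for Inpp5d, with a median of 2.29% over the 8 members and 7.19% over the 6429 genes.

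**Figure D3:**
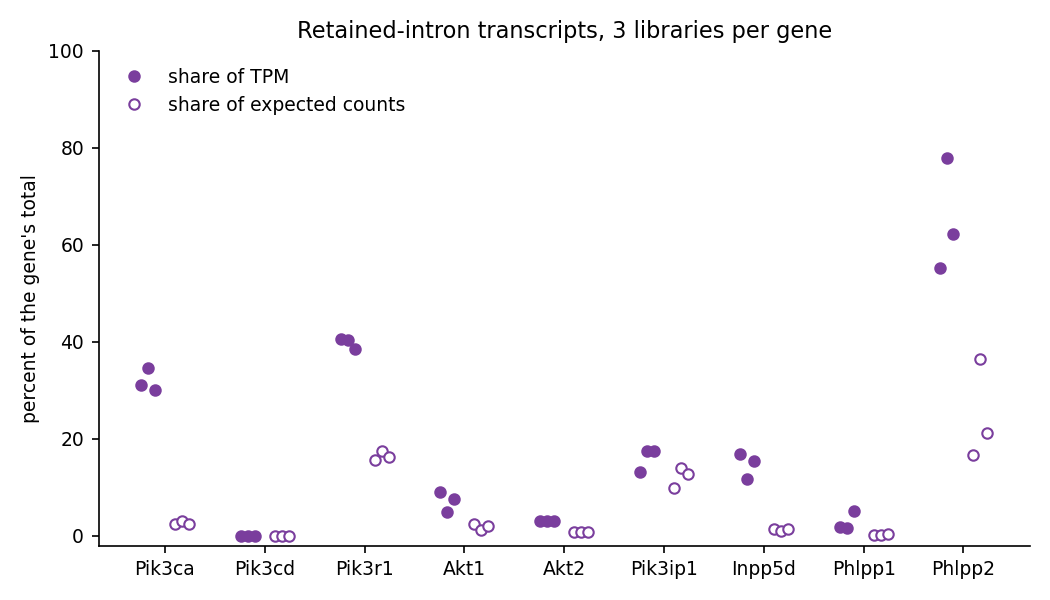
Percent of each gene's TPM (filled) and of its expected counts (open) assigned to retained-intron transcripts, 1 point per library. Pik3r1 and Pik3ca stand near 40 and 32% of TPM in all libraries, and Phlpp2, with 31 to 54 counts, is highest and most scattered.

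Phlpp2 was mostly retained intron in TPM. Phlpp2-202 took 55.0, 77.9 and 62.3% of the gene's TPM (24.8 ± 10.4% of counts), and the protein-coding Phlpp2-201 (1320 residues) was left with 0.26, 0.13 and 0.17 TPM. With TPM summed over protein-coding transcripts alone, Pik3r1 fell behind Akt2, with a difference of -0.33 in log2(TPM + 1) against 0.35 ± 0.15 with all transcripts. Inpp5d, which had no order with Akt1 over all transcripts, then stood below Akt1 in every library, with a mean difference of -0.18.

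Between libraries, Phlpp1 was the member that differed most. Expected counts were rounded, scaled with edgeR's TMM factors to counts adjusted for depth (CPM) and tested gene by gene against Poisson counting noise. This chi-square test, adjusted by Benjamini-Hochberg over all genes, called 7 of the 9 members, against 77.2% of the 18253 genes tested, which takes only read counting error into account. No member (0 of 9) had a highest library at 2 or more times its lowest, against 27.1% of genes tested, and the 9 members had a median ratio of 1.12, against 1.34 over all genes tested. Most members have high counts, and the 6731 genes with a mean count of 1000 or more had a median ratio of 1.15, with 32 of them called at a ratio of 2 or more. In those genes, a ratio of at least 1.5 was reached by 1 of 8 members, Phlpp1, and by 3.33% of genes. That last rule was chosen after the data had been seen.

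Phlpp1 had 106, 62.8 and 77.2 TMM-scaled CPM, a ratio of 1.70 (chi-square test, adjusted p = 3.22e-88). Library 1 stood above library 2 by 0.76 and above library 3 by 0.46 on the log2 scale. The ratio was 1.62 in the M4 counts, 1.23 without library 1, 1.38 without library 2 and 1.70 without library 3, so it reached 1.5 only where libraries 1 and 2 were both kept. Akt1, the kinase that Phlpp1 dephosphorylates, was lowest in library 1 with a ratio of 1.14, and Akt1 TPM over Phlpp1 TPM was 4.59, 8.55 and 6.76. This direction was not particular to Akt1, since library 1 was lowest in scaled counts for 5 of the 9 members, a count not made over all genes. Phlpp2 had its highest scaled count in library 1 as well, with a ratio of 1.503, but was not called (adjusted p = 0.164). In the M4 tables, with 39, 15 and 36 counts, it was called, at a ratio of 2.38 (adjusted p = 0.0228).

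The other members differed by little. Ratios were 1.14 for Akt1, 1.13 for Pik3cd and 1.12 for Inpp5d, and the chi-square test called each, with adjusted p of 7.66e-17, 8.09e-28 and 1.69e-16. Pik3ip1, Akt2 and Pik3r1, with ratios of 1.09, 1.08 and 1.07, were called at adjusted p of 2.41e-05, 0.00130 and 0.00120, but not in the M4 counts. Pik3ca, with a ratio of 1.04, was not called (adjusted p = 0.307). Pik3cd was called whichever library was left out, but the other calls rested on single libraries. Akt1 and Akt2 were not called without library 1, Inpp5d and Pik3ip1 without library 2, and Pik3r1 without library 3. In scaled counts, 2 members were highest in library 1 (Phlpp1 and Phlpp2), 4 in library 2 (Pik3ca, Pik3cd, Akt1 and Pik3ip1) and 3 in library 3 (Pik3r1, Akt2 and Inpp5d). For 4 members the library highest in TPM was not the one highest in scaled counts. Library 1 was highest in TPM for Pik3r1 and Inpp5d, yet Pik3r1 had its lowest scaled count there, and library 2 was highest in TPM for Akt2 and Phlpp2.

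**Figure D4:**
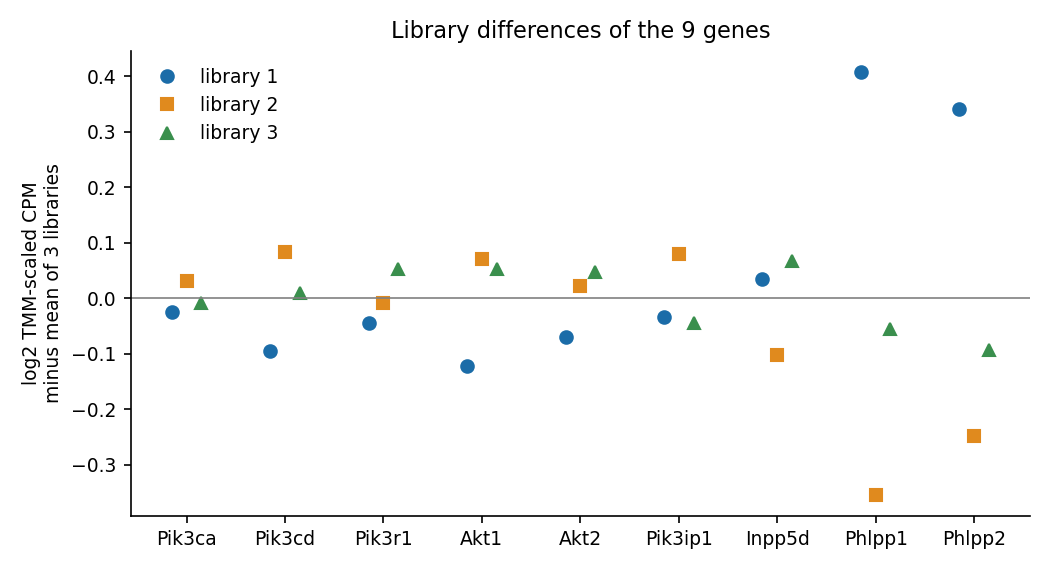
Deviation of each library's log2 TMM-scaled CPM from the gene's mean over the 3 libraries, for the 9 genes. Phlpp1 and Phlpp2 spread widest, with library 1 high and library 2 low, while the other 7 genes have ratios of at most 1.14.

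The genes nearest to the library pattern of Phlpp1 were Tent5a, Klrg1 and Lamc1. They were found among 6726 genes with mean counts of 1000 or more by the Euclidean distance of centred log2 CPM over the 3 libraries. Their distances were 0.0072, 0.019 and 0.024, and 9 genes lay within 0.1. Tent5a had 20.0, 11.5 and 13.3 TPM, Klrg1, a receptor of differentiated T cells, 186, 107 and 126 TPM, and Lamc1, a laminin chain, 21.9, 13.5 and 14.9 TPM. With 3 libraries many genes can share a pattern, and the likeness is a description.

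The wider pathway was represented at most steps. Of 43 other pathway genes, 40 were detected, against 47.6% of protein-coding genes, with a median of 36.3 TPM. The test between libraries called 33 of the 41 tested, near the 77.2% of all genes, with a median ratio of 1.19. Of these, 3, against 27.1% of all genes tested, had a ratio of at least 2: Pik3r3 (3.32, 8.87 and 4.74 TPM) and the class II kinase Pik3c2b (0.49, 1.75 and 0.80) were highest in library 2, and the kinase Sgk1 (16.98, 7.31 and 15.2) was lowest there. The share over all genes depended on count: at a minimum mean count of 50, which all 41 pathway genes tested exceeded, 1211 of 12573 genes were called at such a ratio. Library 2 was the highest for 24 of the 43 in scaled counts. The same count was not made over all genes, so it cannot be read as a trait of the pathway.

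By role, the class I subunits outside the members were all below Pik3cd and Pik3r1, from 39.4 ± 6.60 TPM for Pik3r5 down to 0.37 ± 0.342 for Pik3r6. Pik3cg stood at 22.9 ± 2.68 TPM and Pik3cb at 6.58 ± 0.858. Class II and III genes reached 42.4 ± 6.41 TPM for Pik3c2a and 0.163 ± 0.0503 for Pik3c2g. Among adaptors, Dok2, which dampens receptor signalling, stood at 147 ± 8.13 TPM and Pik3ap1 (BCAP), which recruits PI3K in B cells, at 4.17 ± 0.473. None of the 3 adaptors was called between libraries at the adjusted threshold, at adjusted p of 0.0519 to 0.450, and 1 of them, Pik3ap1, had an unadjusted p below 0.05.

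Pdpk1, which phosphorylates Akt at the membrane, stood at 37.2 ± 3.93 TPM, below Akt1 and Akt2 in every library. In mTORC2, the complex that adds the phosphate that the Phlpp enzymes remove, all 4 genes were detected, from 86.6 ± 6.92 TPM for Mapkap1 to 16.4 ± 0.729 for Mlst8. The catalytic genes of protein phosphatase 2A, which also acts on Akt, stood above Phlpp1 in every library, with 87.7 ± 2.51 TPM for Ppp2ca and 56.2 ± 1.24 for Ppp2cb.

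Downstream of Akt, all 8 targets were detected, from 108 ± 6.29 TPM for Rheb, the activator of mTORC1, to 1.72 ± 0.372 for Foxo4. Foxo1 had 72.9, 87.3 and 80.9 TPM and stood 24.1-, 26.3- and 36.4-fold above Foxo3. Among genes that need Foxo1 in T cells, Klf2, a transcription factor of T cell trafficking, had 281, 409.8 and 289 TPM, and Il7r, the receptor for interleukin-7, had 314, 203 and 197. Klf2, Ccr7 and S1pr1 were highest in library 2, among the 24 of 43 pathway genes that were so in scaled counts, while Il7r was highest in library 1. Library 2 was also where Phlpp1 was lowest and Akt1 highest. With 3 libraries these co-occurrences are values side by side, and RNA levels do not measure lipid or kinase activity.

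**Figure D5:**
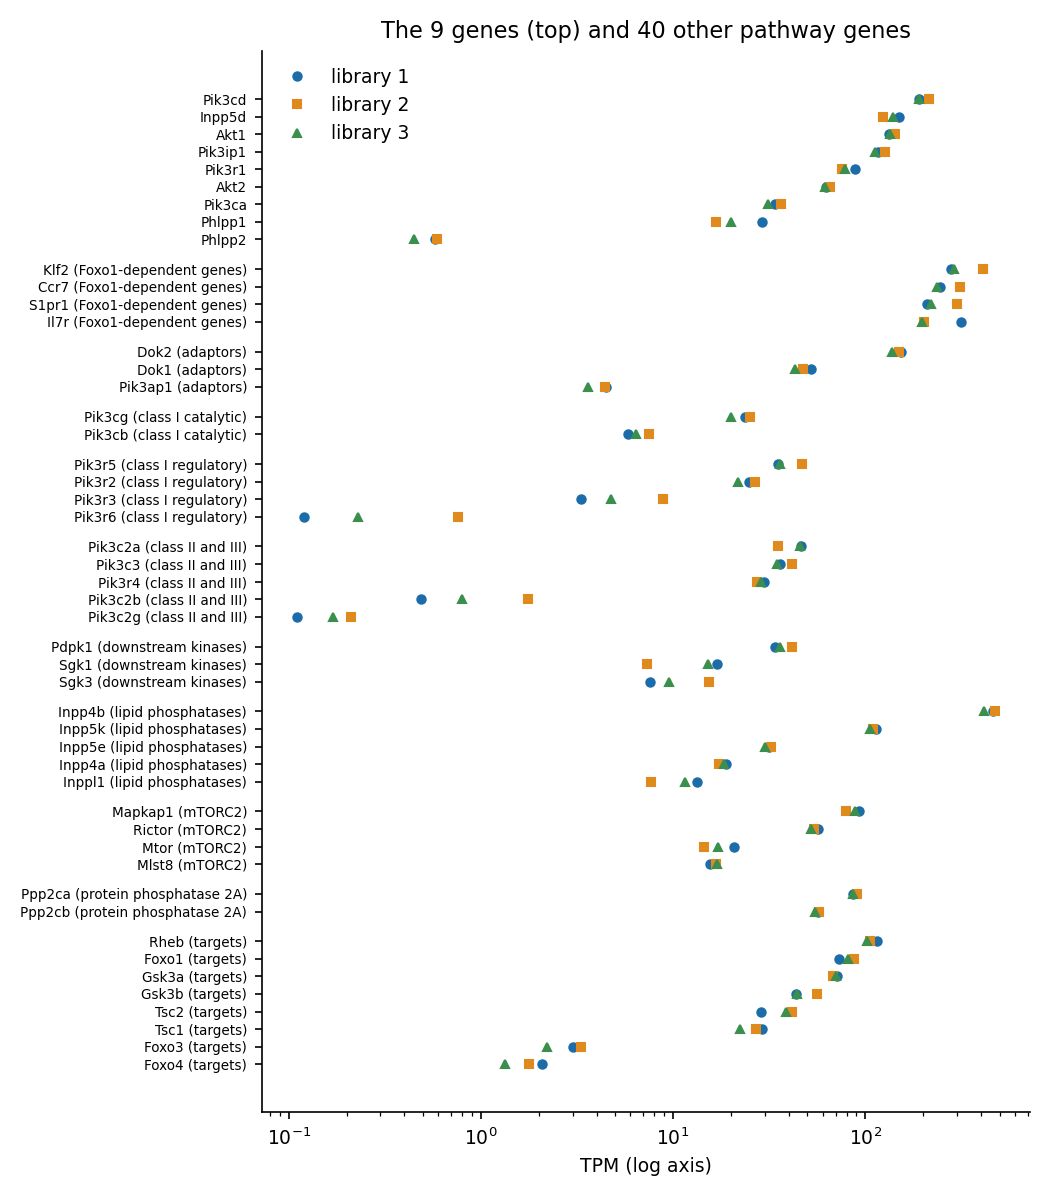
TPM (log axis) of the 9 genes, at the top, and of 40 other pathway genes grouped by role, 1 point per library. By mean TPM, Inpp4b and the Foxo1-dependent genes drawn lie to the right of all 9 genes, and Phlpp2 lies with Pik3r6, Pik3c2b and Pik3c2g at the left edge.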

How the data were processed

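Polyadenylated RNA was sequenced in 3 libraries of 1 biosample, which form 1 group. The authors deposited, per the file headers, expected counts, TPM, and a posterior mean of TPM between a lower and an upper bound, for each gene of GENCODE M21 on mm10. The bounds surround the posterior mean TPM, not the TPM, which can lie above them, and their level is not stated. The deposited transcript tables also give the percent of a gene's TPM per transcript, and a second gene table per library holds whole-number counts against annotation M4. The aligner, counting program, duplicate handling and strandedness are not given in the sources used here, so reads of overlapping genes could be shared.

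Gene identifiers of all 55536 annotated rows carried M21 symbols and coordinates. Rows outside genes (transfer RNAs, spike-ins) held 0.170, 0.170 and 0.218% of the 35652707, 31665170 and 37810591 expected counts and were left out of tests. M4 totals were 9718021, 8945992 and 9904722. Levels were compared as log2(TPM + 1), with a pseudocount of 1. Expected counts were rounded to whole numbers, scaled with TMM in edgeR 4.0.16 (R 4.3.3), and tested by chi-square against Poisson noise wherever the mean count reached 10, with Benjamini-Hochberg adjustment at 0.05. The chi-square script was checked on simulated data. With 1 group no quasi-likelihood contrast exists. DESeq2 1.42.0 size factors, total counts, other minimum counts, pseudocounts and tables, and leaving out each library were alternatives. Python 3.11.15 ran the rest, with scipy 1.17.1, pandas 2.3.3 and numpy 2.4.6. Promoters came from RefSeq (GRCm38.p6).

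The members and lists were chosen with earlier results of these data known. Named genes are the 9 members, the highest and lowest pathway gene of each role and any with a ratio of at least 2, transcripts with at least 10% of a member's TPM, the 3 genes nearest in pattern to the most variable member, and markers. A few pathway genes are not reported here by name, though the counts over the 43 genes include them. Inpp5k, Foxo1, Foxo3, Ppp2cb, Pik3r2, Klf2, Ccr7, S1pr1 and other family members were added after their values were seen. Family shares and transcript kinds were also added then.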

Additional observations from a re-analysis of the deposited data

How the results depend on the processing

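The numbers of pairs apart and of members called kept within 1.5 times under every alternative. The inhibitors minus kinases difference of -1.69 was -2.01 with a pseudocount of 0.1 and -1.15 in the M4 counts per kilobase. Without length correction, Inpp5d minus Akt1 was 0.53 and Pik3ip1 minus Pik3r1 was -0.18. Phlpp1 in library 1 then had 106.4 TMM-scaled CPM, above Akt2 at 106.3 and Pik3ca at 97.3, while in libraries 2 and 3 both kinase genes were higher. In M4 counts per kilobase, Inpp5d minus Akt1 was 0.53, Pik3cd minus Inpp5d -0.051 and Akt2 minus Pik3ca -0.89, and Phlpp1 stood above Akt2. Over protein-coding transcripts, Pik3r1 minus Akt2 was -0.33, Inpp5d minus Akt1 was -0.18 and Pik3ca minus Phlpp1 was 0.14. With 1 library left out, Inpp5d minus Akt1 ran from -0.085 to 0.11, the latter without library 2. Inpp5d and Akt1 had no order in TPM over all transcripts, nor Pik3cd and Inpp5d in the M4 counts, where signs differed between libraries. Over protein-coding transcripts alone, Akt1 was above Inpp5d in every library. The cause of the other changes of sign was not tested. Genes called with a ratio of at least 2, 4948 of all tested, numbered 10635 with no minimum count, 1211 at a minimum of 50 and 1640 in the M4 counts, and 2720 to 3597 with 1 library left out. Genes called at all, 14094, numbered 6286 in the M4 counts, where 12056 were tested, and 9267 to 11076 with 1 library left out, lowest without library 2. No paired analysis was possible because there is 1 group. Depth limits Phlpp2, with 31 to 54 counts, so its library differences and transcript shares are poorly resolved.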
